A study of Mus musculus with 8 samples.

Results

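The genes described here are 32 genes of mitosis, chosen by name and for their function: mitotic cyclins and their kinase, other mitotic kinases, checkpoint and anaphase regulators, kinetochore proteins, spindle motors, proteins of cytokinesis and proteins of mitotic chromosomes. The choice was made with earlier results of these data known. Of the 32 genes, 31 were measured among 18193 genes with a probe set of a single symbol, and Ccnb1 was not analysed here. Each gene is given by its brightest probe set, and all 31 had an intensity above 180 units, 2 times the median, in at least 1 array, with mean intensities between 456 and 5642. Expression was measured on 8 Affymetrix arrays from 2 mouse T cell leukemia lines, each infected with MigR1-Cre or MigR1, with 2 arrays for each of 4 groups. The E2a-/-Lef1F/F line, called Lef1F/F here, has loxP sites around the DNA binding domain of Lef1 on both alleles. The E2a-/- line has unmodified Lef1. Both lines have the FVB/NJ strain label and lack E2a, which encodes the E proteins E12 and E47, so no group has E2a. MigR1-Cre is a retrovirus that produces Cre and GFP, MigR1 produces GFP, and GFP+ cells were sorted 72 h after infection. There was 1 line per genotype, so line and genotype cannot be told apart.

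Mitotic genes are transcribed in a wave late in the cell cycle, so their RNA is abundant in cells that are about to divide or are dividing and low in resting cells. Cyclin A and B proteins with Cdk1 drive entry into mitosis, Aurora and Polo-like kinases build the spindle, the checkpoint holds the anaphase promoting complex until every chromosome is attached, and a central spindle then directs the cut between the daughter cells. In leukemia cells in culture, the RNA of these genes is widely used as a measure of proliferation. In RNA from bulk cells, more cells in this phase and more RNA per cell cannot be told apart.

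In 27 of the 31 measured genes, a promoter of 300 bases was at hand, 250 before and 50 after the RefSeq transcription start. Many mitotic promoters are known to hold a cell cycle genes homology region (CHR), with the letters TTTGAA, which the MuvB complexes bind, and CCAAT boxes, which NF-Y binds. Both motifs were searched on both strands. TTTGAA was found in 22 of the 27 promoters (81.5%), against 18.1% of 27025 promoters of all genes, and lay within 50 bases of the start in 20 (74.1%), against 4.92% of all. CCAAT was found in 21 (77.8%), against 37.9% of all, and at least 2 times in 15 (55.6%), against 12.2% of all. Both motifs were present in 19 of the 27 (70.4%), against 7.12% of all. The motifs overlapped each other in 1 gene, Cdca8. Birc5, Bub1, Cenpe, Nuf2 and Nusap1 had no TTTGAA in this window. Matches of letters are a description and were not tested as binding sites. Plk1, Ube2c and Cenpf are shown because they were among the genes that differed most between replicate arrays, and Ccnb2, Cdc20 and Kif23 because they were higher in the Lef1F/F line. The sequences are from RefSeq, build GRCm38.p6, 5′ to 3′ along the gene, at chr9:70421505-70421804 on the minus strand (Ccnb2), chr4:118437294-118437593 minus (Cdc20), chr9:61946750-61947049 minus (Kif23), chr7:122159185-122159484 plus (Plk1), chr2:164769679-164769978 plus (Ube2c) and chr1:189688037-189688336 minus (Cenpf). Capitals mark the letters of TTTGAA and CCAAT or their reverse complements, and in Ube2c a CCAAT runs into a reverse one.
Ccnb2: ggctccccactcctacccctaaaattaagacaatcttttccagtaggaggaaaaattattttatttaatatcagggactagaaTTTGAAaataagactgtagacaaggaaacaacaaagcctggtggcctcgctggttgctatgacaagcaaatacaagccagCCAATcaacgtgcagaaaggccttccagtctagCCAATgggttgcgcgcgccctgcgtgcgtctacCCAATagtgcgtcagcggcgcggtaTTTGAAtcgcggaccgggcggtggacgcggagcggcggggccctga
Cdc20: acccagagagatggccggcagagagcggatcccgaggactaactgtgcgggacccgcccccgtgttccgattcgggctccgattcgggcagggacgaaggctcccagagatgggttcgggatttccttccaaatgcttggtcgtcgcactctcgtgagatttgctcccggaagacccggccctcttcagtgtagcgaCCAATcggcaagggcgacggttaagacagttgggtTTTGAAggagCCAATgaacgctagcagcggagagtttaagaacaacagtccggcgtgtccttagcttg
Kif23: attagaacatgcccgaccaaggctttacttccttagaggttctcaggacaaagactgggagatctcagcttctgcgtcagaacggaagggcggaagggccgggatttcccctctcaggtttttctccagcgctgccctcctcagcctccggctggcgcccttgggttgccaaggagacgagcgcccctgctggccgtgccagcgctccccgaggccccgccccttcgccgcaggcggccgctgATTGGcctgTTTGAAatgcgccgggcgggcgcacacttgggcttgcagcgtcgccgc
Plk1: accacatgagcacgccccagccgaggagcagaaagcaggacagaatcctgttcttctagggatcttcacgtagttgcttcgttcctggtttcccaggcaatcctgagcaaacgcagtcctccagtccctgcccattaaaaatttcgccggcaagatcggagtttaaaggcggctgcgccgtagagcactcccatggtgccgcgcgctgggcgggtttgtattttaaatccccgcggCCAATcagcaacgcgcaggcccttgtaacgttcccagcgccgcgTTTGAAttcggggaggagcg
Ube2c: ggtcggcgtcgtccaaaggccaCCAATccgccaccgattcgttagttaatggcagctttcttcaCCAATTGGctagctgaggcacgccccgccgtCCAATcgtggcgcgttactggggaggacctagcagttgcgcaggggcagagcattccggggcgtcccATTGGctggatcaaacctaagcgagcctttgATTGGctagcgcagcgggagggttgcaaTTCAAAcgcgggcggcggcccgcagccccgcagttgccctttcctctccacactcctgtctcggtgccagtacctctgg
Cenpf: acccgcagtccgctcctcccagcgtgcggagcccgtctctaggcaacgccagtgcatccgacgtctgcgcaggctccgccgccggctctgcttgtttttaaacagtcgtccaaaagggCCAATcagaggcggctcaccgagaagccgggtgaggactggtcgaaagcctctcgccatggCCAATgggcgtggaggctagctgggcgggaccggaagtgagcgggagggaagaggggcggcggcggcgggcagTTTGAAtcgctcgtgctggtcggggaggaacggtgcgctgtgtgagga

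**Figure D1:**
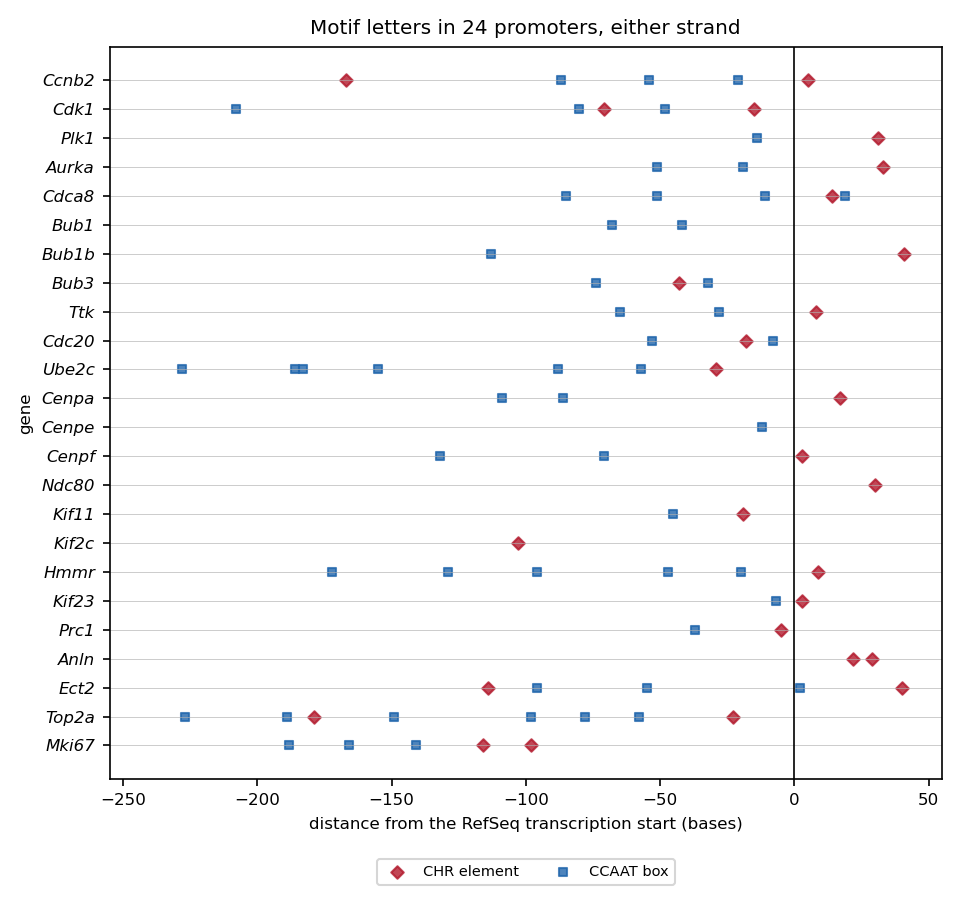
Position of each TTTGAA (CHR element, diamonds) and CCAAT (squares) on either strand, in bases from the RefSeq transcription start (horizontal axis), for the 24 of 27 mitosis genes with a match (vertical axis). Most diamonds sit within 50 bases of the start, as in 20 of the 27 promoters, and squares mostly lie before it.

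Counting the start as position 1 and the base before it as -1, the TTTGAA near the start began at position 5 in Ccnb2, 3 in Kif23, 3 in Cenpf and 31 in Plk1. It began at -18 in Cdc20 and at -29 in Ube2c, where it is read on the other strand. TTTGAA was present in 9 of the 11 promoters of genes called higher in the Lef1F/F line and in 13 of the 16 promoters of genes that were not called.

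The 8 arrays had median intensities between 88.9 and 91.0 units. Lef1 checked the labels of the Lef1F/F arrays: its brighter probe set read 1903 and 1678 in Lef1F/F MigR1-Cre arrays, against 6918 and 6126 in Lef1F/F MigR1 arrays, and 3008 and 3416 in E2a-/- MigR1-Cre arrays, against 3288 and 3337 in E2a-/- MigR1 arrays. A further label field gives the vector of 4 arrays, those of E2a-/- MigR1-Cre and of Lef1F/F MigR1, otherwise than the titles, and the titles were used. Lef1 is unmodified in the E2a-/- line, so it cannot check the vector there. Cells were of the T lineage by their high Cd3d, Cd3e and Cd3g, while Cd4 stayed under 180 in every array. Cd8a read 223 to 253 in the Lef1F/F line, against 1746 to 1989 in the E2a-/- line. Cd8b1 overlapped between the lines, at 772 to 1081 and 897 to 1099. All 5 measured B cell markers and all 6 myeloid markers stayed under 180. Of 3 measured erythroid markers 2 did, and Epor read 236 to 274 in the Lef1F/F line and 200 to 232 in the E2a-/- line. The summed level of 6 stromal markers was 692 to 781 in the Lef1F/F line, against 4510 to 4757 in the E2a-/- line, through Col1a2, and the part of these differences in the results was not tested. Nothing in the labels tells whether the 2 arrays of a group stem from different cultures, and the p-values therefore reflect the spread of these arrays alone, which may be technical.

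The lines were compared over both vectors, 4 arrays against 4. The mitosis genes were mostly brighter in the Lef1F/F line: 30 of 31 had a log2 difference above 0, with a median of 0.26 and a range of -0.17 to 0.75, where the median over all genes was -0.00. The median of the 31 was 0.16 without E2a-/- MigR1-Cre array 1 and 0.34 without E2a-/- MigR1-Cre array 2. With limma, 12 of 31 (38.7%) were higher in the Lef1F/F line at an adjusted p under 0.05, where 12.9% of all 18193 genes were. None of the 31 were lower, where 12.1% of all genes were. Many of all genes are dim, unlike the 31. With probe sets under the 40th percentile of mean intensity left out, 12 of 31 were again higher and 0 lower. Of the 12570 genes then left, 18% were higher and 17.5% lower. At an unadjusted p under 0.05 there were 17 higher and 1 lower, Bub1b, which is 58.1% of the 31 genes, where 34.6% of all genes were under it. The arrays of the lines did not overlap in 10 of the 31 genes, all higher in the Lef1F/F line, where 14.7% of all genes lay that way and 14.9% the other way.

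**Figure D2:**
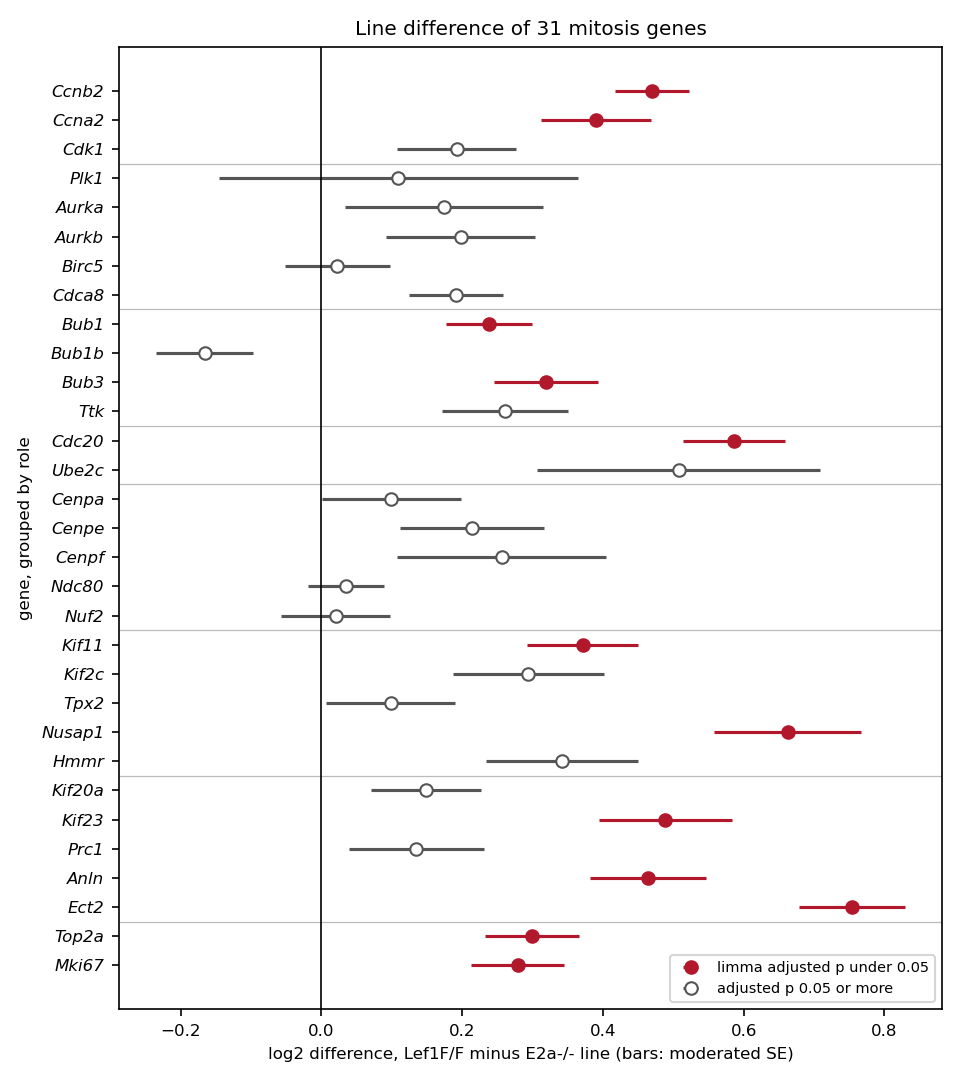
Log2 difference in intensity between the lines, Lef1F/F minus E2a-/- (horizontal axis, 4 arrays each, bars are moderated standard errors), for 31 mitosis genes grouped by role (vertical axis); filled points passed a limma adjusted p of 0.05. Of the 31 points, 30 lie right of 0, and Ect2, Nusap1 and Cdc20 lie farthest among the 12 filled points.

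Proteins of the central spindle and of cytokinesis held 3 of the 12 genes, of 5 measured, where 12.9% of all genes were higher. The median log2 difference over the 5 was 0.46. Ect2 (chromosome 3), the exchange factor that activates RhoA at the division plane, had the largest difference of the 31 genes. Its intensity was 1428 and 1536 in Lef1F/F MigR1-Cre arrays and 1322 and 1348 in Lef1F/F MigR1 arrays, against 762 and 968 in E2a-/- MigR1-Cre arrays and 792 and 828 in E2a-/- MigR1 arrays. All 4 Lef1F/F arrays were above all 4 E2a-/- arrays, with 1409 ± 96.2 in Lef1F/F and 838 ± 90.7 in E2a-/- (SD, n = 4 arrays each), a 1.69-fold difference and 0.75 ± 0.07 on the log2 scale (SE, limma adjusted p = 0.00023). Kif23 (chromosome 9), the kinesin of the centralspindlin complex that recruits Ect2, read 1427 and 1460 in Lef1F/F MigR1-Cre and 1337 and 1247 in Lef1F/F MigR1 arrays, against 851 and 1141 in E2a-/- MigR1-Cre and 890 and 1038 in E2a-/- MigR1 arrays. The lines did not overlap in Kif23, and the difference was 0.49 ± 0.09 (adjusted p = 0.0076). Anln (chromosome 9) encodes anillin, the scaffold of the contractile ring. It had 1130 and 1190 in Lef1F/F MigR1-Cre and 1155 and 1114 in Lef1F/F MigR1 arrays, against 763 and 988 in E2a-/- MigR1-Cre and 754 and 841 in E2a-/- MigR1 arrays, with no overlap and a difference of 0.46 ± 0.08 (adjusted p = 0.00516). Kif20a, the motor that carries Aurora B to the midzone, and Prc1, which bundles its microtubules, had differences of 0.15 ± 0.08 and 0.13 ± 0.10 that did not pass.

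Among cyclins, Ccnb2 and Ccna2 were higher in the Lef1F/F line, and their kinase Cdk1 did not pass the test. Ccnb2 (chromosome 9), a B-type cyclin, had the smallest standard error of the 31 genes. It read 2923 and 2820 in Lef1F/F MigR1-Cre and 2896 and 2843 in Lef1F/F MigR1 arrays, against 2023 and 2120 in E2a-/- MigR1-Cre and 1942 and 2212 in E2a-/- MigR1 arrays. The lines did not overlap, at 2870 ± 47.4 in Lef1F/F and 2074 ± 117 in E2a-/- (SD, n = 4 each), and the difference was 0.47 ± 0.05 (adjusted p = 0.00045). Ccna2 (chromosome 3), the cyclin A of S phase and mitotic entry, read 3809 and 3738 in Lef1F/F MigR1-Cre and 3767 and 3511 in Lef1F/F MigR1 arrays, against 2554 and 3160 in E2a-/- MigR1-Cre and 2616 and 3026 in E2a-/- MigR1 arrays. That difference was 0.39 ± 0.08 (adjusted p = 0.00908), again with no overlap. A further, dimmer probe set of Ccna2 had 0.19 ± 0.08 and did not pass (limma adjusted p = 0.167), and there the lines overlapped. Cdk1 (chromosome 10) read 3413 and 3122 in Lef1F/F MigR1-Cre and 3443 and 2865 in Lef1F/F MigR1 arrays, against 2625 and 3243 in E2a-/- MigR1-Cre and 2631 and 2755 in E2a-/- MigR1 arrays. Here the lines overlapped, through a high E2a-/- MigR1-Cre array, with a difference of 0.19 ± 0.08 (adjusted p = 0.172).

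Of the partners of the anaphase promoting complex, Cdc20 was higher in the Lef1F/F line and Ube2c did not pass. Cdc20 (chromosome 4), the activator that the checkpoint holds in check, read 5665 and 5618 in Lef1F/F MigR1-Cre and 6327 and 6336 in Lef1F/F MigR1 arrays, against 3641 and 4645 in E2a-/- MigR1-Cre and 3823 and 3884 in E2a-/- MigR1 arrays. Every Lef1F/F array was above every E2a-/- array, and the difference was 0.59 ± 0.07 on the log2 scale (adjusted p = 0.000787). Ube2c (chromosome 2), the ubiquitin conjugating enzyme of that complex, read 6706 and 5943 in Lef1F/F MigR1-Cre and 6533 and 4883 in Lef1F/F MigR1 arrays, against 3304 and 6543 in E2a-/- MigR1-Cre and 3465 and 4155 in E2a-/- MigR1 arrays. A single E2a-/- MigR1-Cre array reached the Lef1F/F range, and the difference of 0.51 ± 0.20 did not pass (adjusted p = 0.128). Ube2c, like Plk1, is given array by array because of its spread, a choice made after its values were seen.

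**Figure D3:**
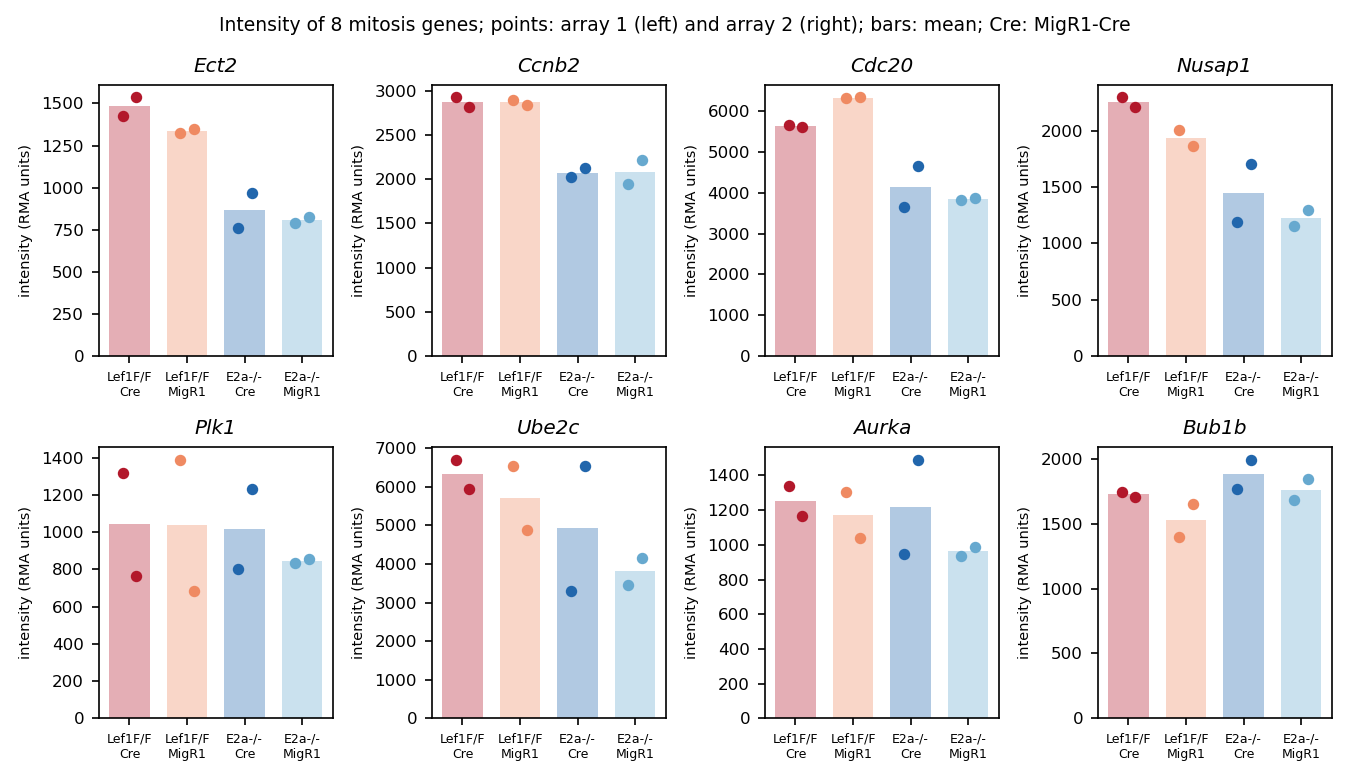
Intensity of 8 mitosis genes (vertical axes, linear RMA units from 0) in the 4 groups (horizontal axes); points are array 1 on the left and array 2 on the right, and bars are their means. The arrays of the lines are apart in Ect2, Ccnb2, Cdc20 and Nusap1, while in Plk1 the replicate arrays of the Lef1F/F groups differ more than the group means do.

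Of 5 spindle motors and microtubule binding proteins, 2 were higher in the Lef1F/F line, where 12.9% of all genes were. The median difference of the 5 was 0.34. Nusap1 (chromosome 2), which bundles microtubules near chromosomes, read 2296 and 2211 in Lef1F/F MigR1-Cre and 2011 and 1864 in Lef1F/F MigR1 arrays, against 1194 and 1703 in E2a-/- MigR1-Cre and 1154 and 1293 in E2a-/- MigR1 arrays. This was a 1.58-fold difference with no overlap, 0.66 ± 0.10 on the log2 scale (adjusted p = 0.00279). Kif11 (chromosome 19), the motor that pushes spindle poles apart, read 1429 and 1375 in Lef1F/F MigR1-Cre and 1430 and 1214 in Lef1F/F MigR1 arrays, against 985 and 1158 in E2a-/- MigR1-Cre and 964 and 1107 in E2a-/- MigR1 arrays, a difference of 0.37 ± 0.08 (adjusted p = 0.0119). The lines did not overlap in Kif11. Hmmr, Kif2c and Tpx2, which organise spindle poles and microtubule ends, had differences of 0.34 ± 0.11, 0.29 ± 0.11 and 0.10 ± 0.09 that did not pass at the brightest probe set. A further probe set of Tpx2 did pass. Tpx2, the activator of Aurora A, read 1110 and 1030 in Lef1F/F MigR1-Cre and 1182 and 1012 in Lef1F/F MigR1 arrays, against 928 and 1199 in E2a-/- MigR1-Cre and 915 and 1021 in E2a-/- MigR1 arrays.

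In the spindle assembly checkpoint, Bub3 and Bub1 were higher in the Lef1F/F line, and Bub1b was the only one of the 31 genes with a difference below 0. Bub3 (chromosome 7), which brings Bub1 to kinetochores, read 5467 and 5073 in Lef1F/F MigR1-Cre and 5112 and 4832 in Lef1F/F MigR1 arrays, against 3801 and 4778 in E2a-/- MigR1-Cre and 3881 and 4009 in E2a-/- MigR1 arrays. Its lines did not overlap, with a difference of 0.32 ± 0.07 (adjusted p = 0.0176). The kinase gene Bub1 (chromosome 2) read 2663 and 2498 in Lef1F/F MigR1-Cre and 2398 and 2457 in Lef1F/F MigR1 arrays, against 2029 and 2414 in E2a-/- MigR1-Cre and 2010 and 2054 in E2a-/- MigR1 arrays. An E2a-/- MigR1-Cre array exceeded the lowest Lef1F/F array, and the difference was 0.24 ± 0.06 (adjusted p = 0.0267). Bub1b (chromosome 2) encodes BubR1, the inhibitor of Cdc20. It read 1749 and 1710 in Lef1F/F MigR1-Cre and 1402 and 1652 in Lef1F/F MigR1 arrays, against 1770 and 1994 in E2a-/- MigR1-Cre and 1680 and 1848 in E2a-/- MigR1 arrays. The lines overlapped, and the difference of -0.17 ± 0.07 did not pass (adjusted p = 0.147). A dim further probe set of Bub1b was called lower, with -0.29 ± 0.06 (limma adjusted p = 0.00914). It read 76 to 86 in Lef1F/F and 94 to 104 in E2a-/- arrays. Another, bright one had -0.13 ± 0.06 and did not pass. Ttk, the kinase that starts the checkpoint, had 0.26 ± 0.09 (adjusted p = 0.0822).

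Both proteins of chromosome structure passed, where 12.9% of all genes were higher. Top2a (chromosome 11), the topoisomerase that untangles sister chromatids, read 6012 and 6360 in Lef1F/F MigR1-Cre and 6268 and 6220 in Lef1F/F MigR1 arrays, against 4837 and 5764 in E2a-/- MigR1-Cre and 4569 and 5104 in E2a-/- MigR1 arrays. There was no overlap, and the difference was 0.30 ± 0.07 (adjusted p = 0.0146). Mki67 (chromosome 7), the gene of the proliferation marker Ki-67, which coats mitotic chromosomes, read 3805 and 3796 in Lef1F/F MigR1-Cre and 3958 and 3450 in Lef1F/F MigR1 arrays, against 3025 and 3548 in E2a-/- MigR1-Cre and 2951 and 2871 in E2a-/- MigR1 arrays. The lines overlapped by a single array in Mki67, with a difference of 0.28 ± 0.07 (adjusted p = 0.0192).

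None of the 5 centromere and kinetochore genes and none of the 5 genes of mitotic kinases and the chromosomal passenger complex passed. Of all genes, 12.9% were higher and 12.1% lower. The median differences of these role groups were 0.10 and 0.17. Ndc80 and Nuf2, which form the arm that grips microtubules, had the smallest differences at the kinetochore, 0.03 ± 0.05 and 0.02 ± 0.08. Birc5, the survivin gene of the passenger complex, had 0.02 ± 0.07, and its partners Cdca8 and Aurkb had 0.19 ± 0.07 and 0.20 ± 0.11. Cenpa, the histone of centromeres, had 0.10 ± 0.10, and Aurka, the kinase of spindle poles, 0.17 ± 0.14. The standard errors of Plk1, 0.26, and Ube2c, 0.20, were the highest of the 31 genes. Whether the role groups differ from each other was not tested.

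The difference rested in part on single arrays, and it was seen within each vector. Without E2a-/- MigR1 array 1, 7 of the 31 genes were called higher, where 9.71% of all genes were, and without E2a-/- MigR1-Cre array 2, 18 were, where 10.2% of all genes were. With the lines compared between the MigR1-Cre groups, 2 arrays against 2, 6 genes passed (8.6% of all genes). Between the MigR1 groups 6 also did (8.71% of all genes). Both tests took the spread from the arrays of all groups, so their results are not independent of each other. Ccnb2, Cdc20, Nusap1 and Ect2 passed in all 19 alternatives that were run.

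Most members had further probe sets, 39 in 21 of the 31 genes, of which 29 had the sign of the brightest in the line comparison, with 6 called higher and 2 lower. Of the 9 called genes with further probe sets, 4 had another that was called higher. All 3 probe sets of Cdc20 ran the same way. Tpx2, not called at its brightest, had another that was called higher, 0.41 ± 0.09 (limma adjusted p = 0.0153). That probe set read 761 and 712 in Lef1F/F MigR1-Cre and 721 and 665 in Lef1F/F MigR1 arrays. It read 488 and 658 in E2a-/- MigR1-Cre and 494 and 532 in E2a-/- MigR1 arrays, with no overlap of the lines. The dim remaining probe sets of Tpx2 had -0.06 and 0.08 and did not pass. The dimmer probe set of Bub1 read 135 and 147 in Lef1F/F MigR1-Cre and 132 and 139 in Lef1F/F MigR1 arrays, against 180 and 219 in E2a-/- MigR1-Cre and 173 and 171 in E2a-/- MigR1 arrays. This is the opposite order to that of the bright one, and with the mean over all probe sets the difference of Bub1 was -0.09 and that of Top2a -0.01. Plk1, Ube2c and Ect2 had 1 probe set each.

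The question of whether Cre in the floxed line changed the mitotic genes was addressed by the Lef1F/F arrays, those with MigR1-Cre against those with MigR1. In that line, 0 of 31 genes passed, where 0.286% of all genes did (52, of which 12 were higher and 40 lower), and 0 of 31 had an unadjusted limma p under 0.05, where 1143 of all genes (6.28%) did. Log2 differences lay between -0.17 and 0.22 with a median of 0.08, and 27 were above 0, where 49.5% of all genes were. The median was 0.0034 without Lef1F/F MigR1 array 2 and 0.14 without Lef1F/F MigR1 array 1. Their standard errors lay between 0.07 and 0.36. Groups of 2 arrays did not overlap in 10 genes that were higher after MigR1-Cre (16.4% of all genes lay that way) and in 1 gene, Cdc20, that was lower (16.1% of all genes). The 10 were Cdca8, Bub1, Bub1b, Ttk, Kif2c, Nusap1, Hmmr, Kif20a, Kif23 and Ect2. The smallest p belonged to Bub1b, with 1729 ± 27.7 in MigR1-Cre arrays and 1527 ± 177 in MigR1 arrays (SD, n = 2 each), a difference of 0.18 ± 0.10 on the log2 scale. Cdc20 had 5642 ± 33.6 in MigR1-Cre and 6332 ± 6.7 in MigR1 arrays, a difference of -0.17 ± 0.10, the lowest of the 31. Nusap1 and Ect2 had 0.22 ± 0.15 and 0.15 ± 0.11, and limma's adjusted p was 1.00 for all 4 genes. Mki67, Top2a and Cdk1, which mark cycling cells, had 0.04 ± 0.09, -0.01 ± 0.09 and 0.06 ± 0.12.

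With unmodified Lef1, in the E2a-/- line, the same comparison called 0 of 31 genes, where 0% of all genes were called by limma and 309 genes (1.7%) had an unadjusted p under 0.05, with 0 of the 31 among them. The median difference of the 31 was 0.11, the range -0.05 to 0.32, and 29 were above 0, where 49.6% of all genes were. Mki67 did not overlap between MigR1-Cre and MigR1 arrays and was higher after MigR1-Cre (15.8% of all genes lay that way), and 0 genes lay the other way (15.6% of all genes). Mki67 had 3287 ± 370 in MigR1-Cre and 2911 ± 56.4 in MigR1 arrays (SD, n = 2 each), a difference of 0.17 ± 0.09. Cenpe, the kinetochore motor that moves chromosomes to the spindle equator, read 646 and 867 in E2a-/- MigR1-Cre and 595 and 684 in E2a-/- MigR1 arrays, a difference of 0.23 ± 0.14. Cenpf, a large kinetochore protein of late cycle, read 730 and 1156 in E2a-/- MigR1-Cre and 690 and 782 in E2a-/- MigR1 arrays, a difference of 0.32 ± 0.21. Aurka read 945 and 1491 in E2a-/- MigR1-Cre and 936 and 989 in E2a-/- MigR1 arrays, a difference of 0.30 ± 0.20. In these 3 genes MigR1-Cre array 1 lay between the MigR1 arrays and array 2 above both. Without that array the median of the 31 genes was -0.06, and without array 1 it was 0.26.

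The effects of Cre in the 2 lines were then set against each other, as the difference in the Lef1F/F line minus that in the E2a-/- line. It passed in 0 of 31 genes, where 0.033% of all genes passed, and 0 of the 31 had an unadjusted limma p under 0.05, where 746 of all genes (4.1%) did. The median was -0.03, with 12 genes above 0 and 19 below, and the range was -0.26 to 0.12. Cdc20 had the smallest p, with -0.26 ± 0.15, and Top2a, Mki67 and Tpx2 had -0.14 ± 0.13, -0.13 ± 0.13 and -0.16 ± 0.18. The median turned with single arrays: without E2a-/- MigR1-Cre array 2 it was 0.15, and without E2a-/- MigR1-Cre array 1 it was -0.19.

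The members moved together from array to array, also between the replicates of the E2a-/- groups, and less clearly between those of the Lef1F/F groups. The numbers 1 and 2 were given to the arrays of a group in the order of the records, and the labels pair no arrays. In E2a-/- MigR1-Cre, all 31 genes were brighter in array 2 than in array 1, by a median of 0.34 on the log2 scale and a range of 0.07 to 0.99, where 46.8% of all genes were brighter there. Array 2 of that group was also the brightest of the 4 E2a-/- arrays in 29 of 31 mitosis genes, where 26.8% of all genes were brightest there. In E2a-/- MigR1, 29 of 31 were brighter in array 2, by a median of 0.14 (52.2% of all genes). The Lef1F/F groups differed less and the other way, with 21 of 31 dimmer in array 2 of MigR1-Cre (median -0.05) and 24 of 31 dimmer in array 2 of MigR1 (median -0.10). Of all genes, 51.2% and 50% were brighter in array 2 of these groups. The median of -0.05 lay within the middle 50% of all genes, -0.08 to 0.09. As a median over the 31 genes, the deviation from the mean of the 8 arrays was 0.21 and 0.15 in Lef1F/F MigR1-Cre, 0.18 and 0.02 in Lef1F/F MigR1, -0.24 and 0.08 in E2a-/- MigR1-Cre and -0.28 and -0.13 in E2a-/- MigR1 arrays.

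**Figure D4:**
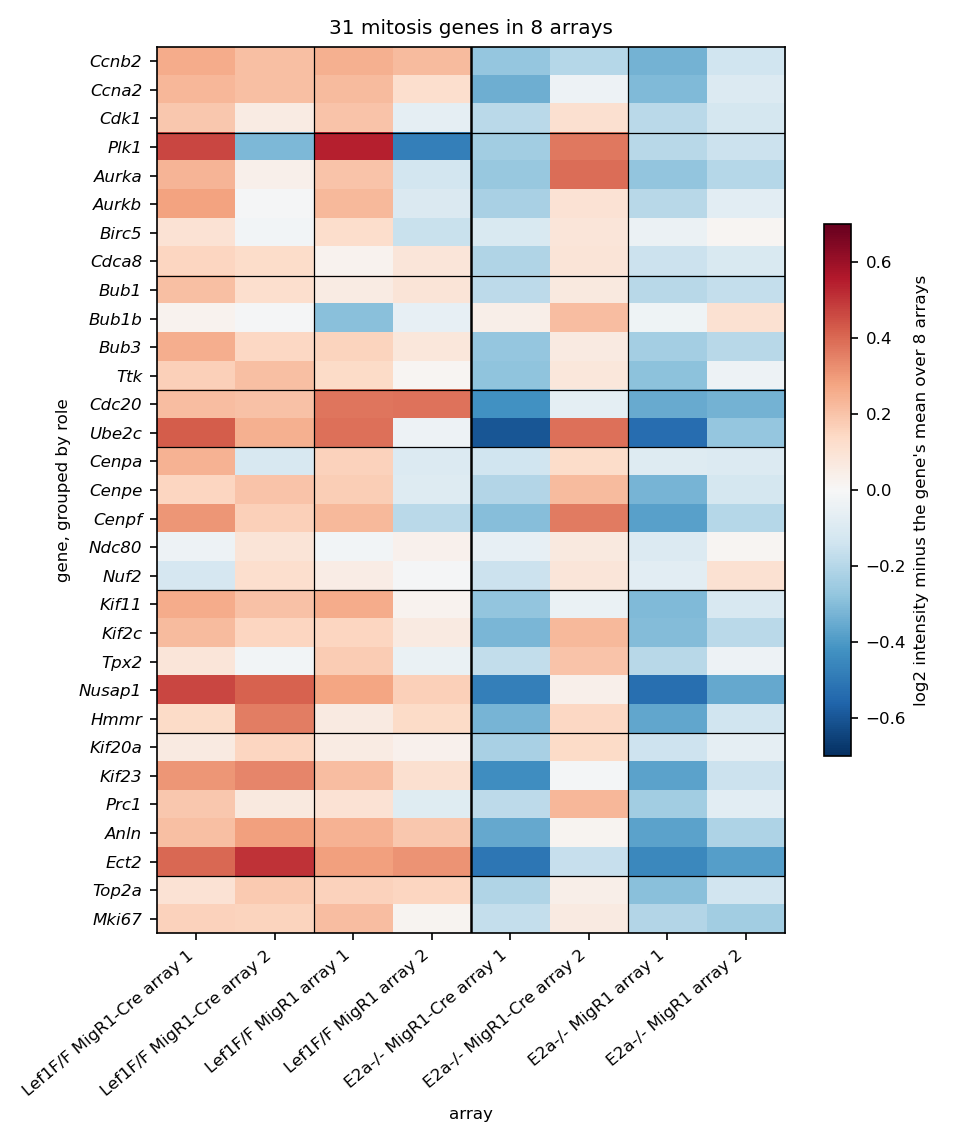
Log2 intensity of 31 mitosis genes (rows, grouped by role) in each of the 8 arrays (columns) as the deviation from that gene's mean over all 8 arrays (colour, red above and blue below). The Lef1F/F arrays are mostly red, though Lef1F/F MigR1 array 2 is mixed, with a median deviation of 0.02. The E2a-/- arrays are mostly blue, except E2a-/- MigR1-Cre array 2, which is the brightest E2a-/- array in 29 of 31 rows.

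Plk1, Ube2c, Cenpf and Aurka differed most between replicates. Plk1 (chromosome 7), a Polo-like kinase of spindle assembly and mitotic exit, read 1319 and 766 in Lef1F/F MigR1-Cre and 1390 and 684 in Lef1F/F MigR1 arrays, against 805 and 1233 in E2a-/- MigR1-Cre and 834 and 858 in E2a-/- MigR1 arrays. In the Lef1F/F line array 1 exceeded array 2 by 1.72-fold after MigR1-Cre and 2.03-fold after MigR1, so replicates differed more than the lines did (0.11 ± 0.26 on the log2 scale). Ube2c was 1.98-fold brighter in array 2 than in array 1 of E2a-/- MigR1-Cre, and Cenpf and Aurka were each 1.58-fold brighter there. In Lef1F/F MigR1, Ube2c was 1.34-fold and Cenpf 1.33-fold brighter in array 1. Ccnb2 moved least in E2a-/- MigR1-Cre, by 0.07, and Ndc80 by 0.13.

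**Figure D5:**
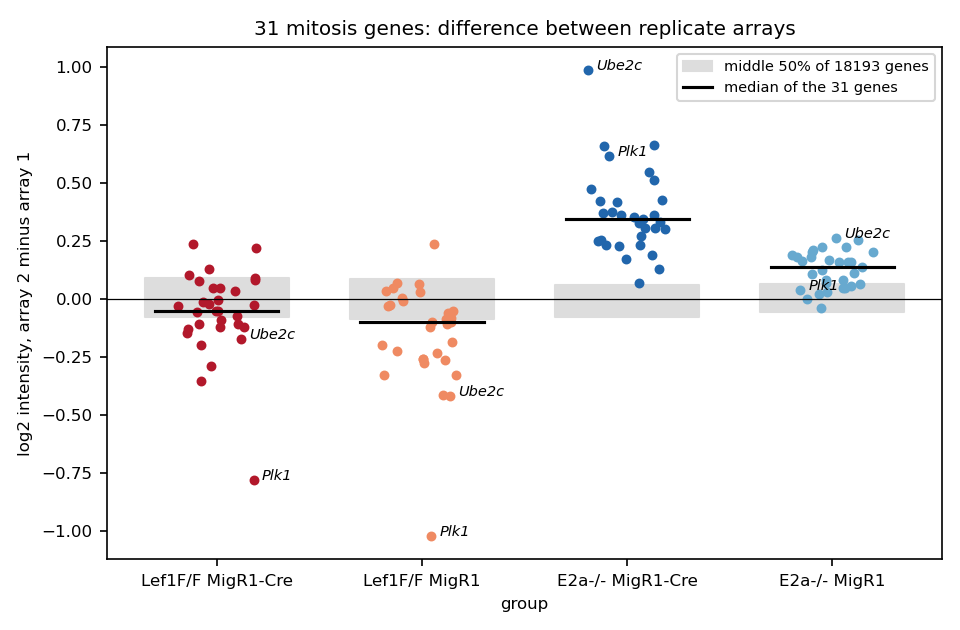
Log2 intensity of array 2 minus array 1 (vertical axis) of 31 mitosis genes in each of the 4 groups (horizontal axis); points are genes, black lines their medians, and grey bands the middle 50% of 18193 genes. All 31 points lie above 0 in E2a-/- MigR1-Cre with a median of 0.34, and Plk1 lies lowest in both Lef1F/F groups, at -0.78 and -1.02.

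Genes of DNA replication, which act earlier in the cycle, are given beside these shifts. Of 28 S phase genes, 8 were brighter in E2a-/- MigR1-Cre array 2 than in array 1 (46.8% of all genes), with a median of -0.06. In the Lef1F/F groups 19 (MigR1-Cre, 51.2% of all genes) and 17 (MigR1, 50% of all genes) were brighter in array 2, with medians of 0.10 each. Between the lines, 0 of the 28 were higher in Lef1F/F by limma, where 12.9% of all genes were. Lower were 9 (32.1%), where 12.1% of all genes were, and the median was -0.09. E2f1, a transcription factor that drives S phase genes, read 488 and 380 in Lef1F/F MigR1-Cre and 470 and 384 in Lef1F/F MigR1 arrays, against 726 and 628 in E2a-/- MigR1-Cre and 681 and 657 in E2a-/- MigR1 arrays. Its lines did not overlap, and the difference was -0.65 ± 0.10 (adjusted p = 0.00215). Mcm3, of the replicative helicase, had -0.28 ± 0.07, Gins1, of the GINS complex of that helicase, -0.20 ± 0.04, and Prim1, of the primase, -0.20 ± 0.04. None of the 28 passed in a comparison of MigR1-Cre with MigR1, where 0.286% of all genes did in the Lef1F/F line and 0% in the E2a-/- line. An unadjusted limma p under 0.05 was found for 1 in the Lef1F/F line (6.28% of all genes) and 0 in the E2a-/- line (1.7% of all genes).

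Of 95 other genes of mitosis, 22 (23.2%) were higher and 7 (7.37%) lower in the Lef1F/F line, with a median of 0.05. Of all genes, 12.9% were higher and 12.1% lower. Pttg1, which encodes securin, the inhibitor of separase, read 2886 and 3184 in Lef1F/F MigR1-Cre and 2778 and 3120 in Lef1F/F MigR1 arrays, against 1448 and 1622 in E2a-/- MigR1-Cre and 1474 and 1497 in E2a-/- MigR1 arrays. This was the largest difference of the 95, 0.99 ± 0.06 (adjusted p = 1.65e-05), with no overlap. Ska3, of the outer kinetochore, had 0.69 ± 0.06, Dlgap5, a spindle protein, 0.66 ± 0.06, and Pbk, a mitotic kinase, 0.52 ± 0.05. Of 16 condensin and cohesin genes, 7 (43.8%) were higher, where 12.9% of all genes were. Lower was 1 (6.25%, where 12.1% of all genes were), Ncapd2 of condensin (-0.39 ± 0.05, named to complete the count after its value was seen). Of subunits and partners of the anaphase promoting complex, 16 measured, 3 were higher and 3 lower, 18.8% each way, where 12.9% and 12.1% of all genes were. Beside the same shares of all genes, 3 of 16 entry regulators (18.8%) were higher and 0 lower. Of 25 other kinetochore and checkpoint genes, 6 (24%) were higher and 3 (12%) lower. Of 22 other spindle and cytokinesis genes, 3 (13.6%) were higher and 0 lower. In comparisons of MigR1-Cre with MigR1, 0 of the 95 passed by limma, where 0.286% of all genes did in the Lef1F/F line and 0% in the E2a-/- line. At an unadjusted limma p under 0.05 there were 2 in the Lef1F/F line (6.28% of all genes) and 1 in the E2a-/- line (1.7% of all genes). Between the replicates of E2a-/- MigR1-Cre, 68 of the 95 were brighter in array 2, with a median of 0.10, where 46.8% of all genes were brighter there.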

How the data were processed

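The values are probe set intensities that the authors made with RMA in RMAExpress (version not given in the sources used here), which makes array distributions alike, and deposited on a linear scale. The study's dChip comparison was not used. Groups follow the sample titles. Of 45037 probe sets, 34945 had 1 gene symbol in the platform annotation, 932 several and 9160 none, and the brightest probe set of the first kind stood for each gene. The design was written for log2 values, so log2 was taken with no offset. The model, in limma 3.58.1 (R 4.3.3), had a mean for each of 4 groups over 8 arrays (4 residual degrees of freedom), with eBayes moderation, two-sided p-values, Benjamini-Hochberg adjustment over 45037 probe sets and a threshold of 0.05. The members and lists were chosen with earlier results of these data known. Array values are given for genes past the threshold, the 4 with the smallest p where none passed, and Mki67, Top2a and Cdk1. In the other lists, up to 4 genes past the threshold are named. The fit was tested on simulated data. Alternatives covered moderation, filters, probe sets, normalisation, weights, blocks and left-out arrays. The number of arrays limits the precision.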

Additional observations from a re-analysis of the deposited data

Results flagged for a closer look

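In 4 of 62 checks, 1 for each gene and line with 4 arrays, the most extreme array stood apart from the next by a gap so large a share of the whole range that chance gives it about 1 time in 20. A few of 62 checks are expected to reach this by chance, and the genes move together, so the checks are not independent. In the E2a-/- line, MigR1-Cre array 2 was the highest for Aurka, with a gap of 0.881 of the range, for Bub1, with 0.881, and for Plk1, with 0.852. In the Lef1F/F line, MigR1 array 2 was the lowest for Cenpe, with a gap of 0.831, at 700 units where the other arrays lay between 825 and 853.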

How the results depend on the processing

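The number of the 31 genes called higher in the Lef1F/F line, 12, was 19 with a replicate block in that line (16.7% of all genes), 6 with the MigR1 arrays alone, 6 with the MigR1-Cre arrays alone (added after seeing the data), and 7 to 18 when an array was left out. With the mean of all probe sets, 1 gene, Bub1b, was lower, and the line differences of Top2a and Bub1 were -0.011 and -0.091. When an array was left out, the median Cre effect lay between -0.062 and 0.26 in the E2a-/- line and the median difference of the effects between -0.19 and 0.15. Single genes then changed sign in these ranges. In the E2a-/- line the Cre effect lay between -0.0091 and 0.65 for Cenpf, -0.025 and 0.63 for Aurka, and -0.036 and 0.27 for Cdk1, lowest without MigR1-Cre array 2. In the Lef1F/F line it lay between -0.059 and 0.14 for Mki67, -0.077 and 0.19 for Cdk1, and -0.055 and 0.027 for Top2a. The difference of the effects lay between -0.34 and 0.025 for Tpx2 and -0.21 and 0.092 for Cdk1. The cause was not tested. No comparison of MigR1-Cre with MigR1 called any of the 31 genes under the alternatives run. Arrays were numbered in the order of the records, so a shared number is no pairing by the labels. In the Lef1F/F line, arrays of the same number nevertheless correlated at 0.9975 across probe sets, against 0.9943 and 0.9945 for replicates. There, array 2 minus array 1 correlated between the vectors over the 31 genes (r = 0.816, and 0.605 over all genes, which are not independent).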
